A study of Saccharomyces cerevisiae with 7 samples.

Results

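The 2 peaks described here, of 731 in the deposited table, are those taken to lie over MF(ALPHA)1 and STE3, genes that Saccharomyces cerevisiae expresses only in cells of the alpha mating type. The first lies over MF(ALPHA)1 by that choice, on chromosome XVI from 191854 to 195645 (3792 bp), and the second over STE3, on chromosome XI from 112600 to 114812 (2213 bp), with positions in sacCer2, the build given by the submitters' processing notes. The table lists them as chrXVI_191854_195645 and chrXI_112600_114812. They were picked by name and because both stood near the lowest level of the table in the ppm1 and S412A libraries, so their levels in those libraries, set against wild type in YPL, are given as a description without a test. The table itself names no gene. The 2 gene names came with the choice of peaks, and no annotation of that build was used here to place the genes within them.

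The values come from chromatin immunoprecipitation with sequencing (ChIP-seq) of Rph1 carrying an HA epitope tag, in 7 libraries of CEN.PK yeast. All the strains are MATa and have the tagged RPH1 marked with HYG, per the labels. The S412A group (1 library) has the Rph1 substitution S412A and grew in YPL, the ppm1 group (2 libraries) has ppm1::kanMX and grew in YPL, the SL group (2 libraries) is wild type 1 h after the switch from YPL to SL, and the last group (2 libraries) is wild type in YPL. YPL is a rich and SL a synthetic medium, and both have 2% lactate as carbon source. The labels do not say whether replicates were separate cultures, so the spread between them may be technical.

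Rph1 is a JmjC-domain demethylase of histone H3 that also binds DNA through zinc fingers, and Ppm1 is the methyltransferase of the catalytic subunit of the phosphatase PP2A. Yeast cells of the 2 mating types signal to each other with peptide pheromones. Alpha cells secrete alpha-factor, whose main precursor is the product of MF(ALPHA)1, and detect a-factor with the receptor encoded by STE3. Both genes are switched on by the regulator Mat-alpha1 together with Mcm1, and cells of the a type, which lack Mat-alpha1, do not express them.

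At the MF(ALPHA)1 peak, that of the pheromone precursor gene, signal was 4664 in the S412A library, 4582 and 4699 in the ppm1 libraries, 6959 and 6248 in the SL libraries, and 8875 and 9825 in wild type in YPL. The S412A value lay between the ppm1 values, the SL libraries stood above both genotypes, and wild type in YPL was above every other library. Per kb of peak the levels were 1230 in S412A, 1224 ± 21.7 (SD, n = 2) in the ppm1 deletion, 1741 ± 132 (n = 2) in SL and 2466 ± 177 (n = 2) in wild type in YPL. Signal in S412A was 0.499 times, and in the ppm1 deletion 0.497 times, that of wild type in YPL, as ratios of geometric means.

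At the STE3 peak, the receptor gene's, signal was 2868 in the S412A library, 2613 and 2810 in the ppm1 libraries, 2919 and 3092 in the SL libraries, and 4692 and 4713 in wild type in YPL. Here the SL libraries stood close above S412A and the ppm1 deletion, and only wild type in YPL was set apart. Per kb the levels were 1296 in S412A, 1225 ± 62.7 (n = 2) in the ppm1 deletion, 1358 ± 55.4 (n = 2) in SL and 2125 ± 6.85 (n = 2) in wild type in YPL. The ppm1 deletion, S412A and SL, in rising order, lay close together, as the higher ppm1 library held 2810, the S412A library 2868 and the lower SL library 2919.

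**Figure D1:**
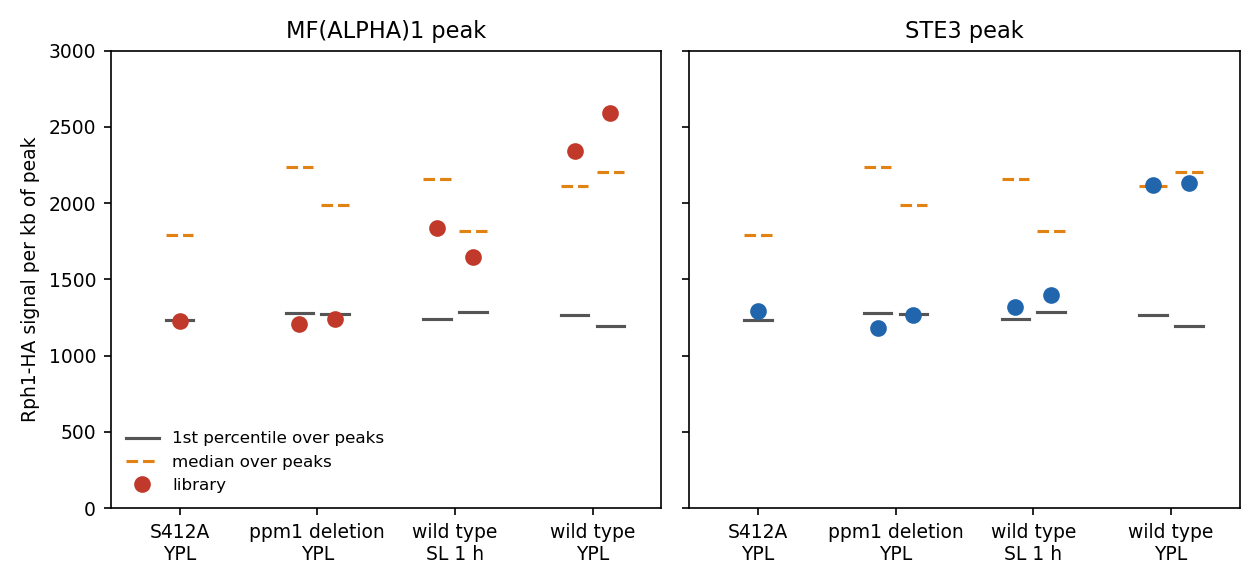
Rph1-HA signal per kb of peak in each library at the MF(ALPHA)1 peak (left) and the STE3 peak (right), with points for libraries, solid bars for the 1st percentile and dashed bars for the median of signal per kb over the 731 peaks of the same library. In S412A and the ppm1 deletion both peaks sit at the solid bar, whereas in wild type in YPL the MF(ALPHA)1 peak (2341 and 2591 per kb) is above the dashed bar and the STE3 peak (2120 and 2130 per kb) lies beside it.

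The lowest level of the table, called the floor here, was taken as the 1st percentile of signal per kb over the 731 peaks of a library. It varied little between libraries, from 1195 to 1288 per kb. Signal at MF(ALPHA)1 stood at 0.999 times the floor in S412A, 0.942 and 0.974 times in the ppm1 libraries, 1.48 and 1.28 times in SL and 1.85 and 2.17 times in wild type in YPL. In each ppm1 library a single peak of the table was lower per kb than the MF(ALPHA)1 peak, and in S412A 7 were. In wild type in YPL 493 and 529 peaks were lower.

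The STE3 peak stood at 1.05 times the floor in S412A, 0.921 and 0.998 times in the ppm1 libraries, 1.06 and 1.09 times in SL and 1.67 and 1.78 times in wild type in YPL. It was the lowest peak of the table per kb in the first ppm1 library (0 peaks lower) and had 6 peaks below it in the second, 34 in S412A, 34 and 64 in SL, and 371 and 332 in wild type in YPL. In SL the receptor peak thus lay near the floor, while the pheromone peak, at 1.48 and 1.28 times, did not.

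Over the whole table, 472 peaks were at 1.5 times the floor or more in both wild-type YPL libraries. Of these, 2 were within 1.1 times the floor in S412A and in both ppm1 libraries, and they were the MF(ALPHA)1 and STE3 peaks. Leaving out any 1 of the S412A, ppm1 or wild-type YPL libraries also gave 2, as did a floor at the 5th percentile, and the same peaks each time. Leaving out a library only loosens the limits, so the pair had to stay. Those settings show only that no further peak joined it. The peak next nearest to the floor among the 472, on chromosome XV from 379832 to 385086, reached 1.42 times in the higher ppm1 library and 1.27 times in S412A, against 1.69 times in wild type in YPL. In the opposite direction, 0 of 731 peaks were at 1.5 times the floor or more in S412A and both ppm1 libraries and within 1.1 times in both wild-type YPL libraries. The pair was chosen for these levels, so its place at the end of this order is no separate support. In both SL libraries, by the same limit, 40 of the 472 were within 1.1 times the floor, the STE3 peak among them.

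**Figure D2:**
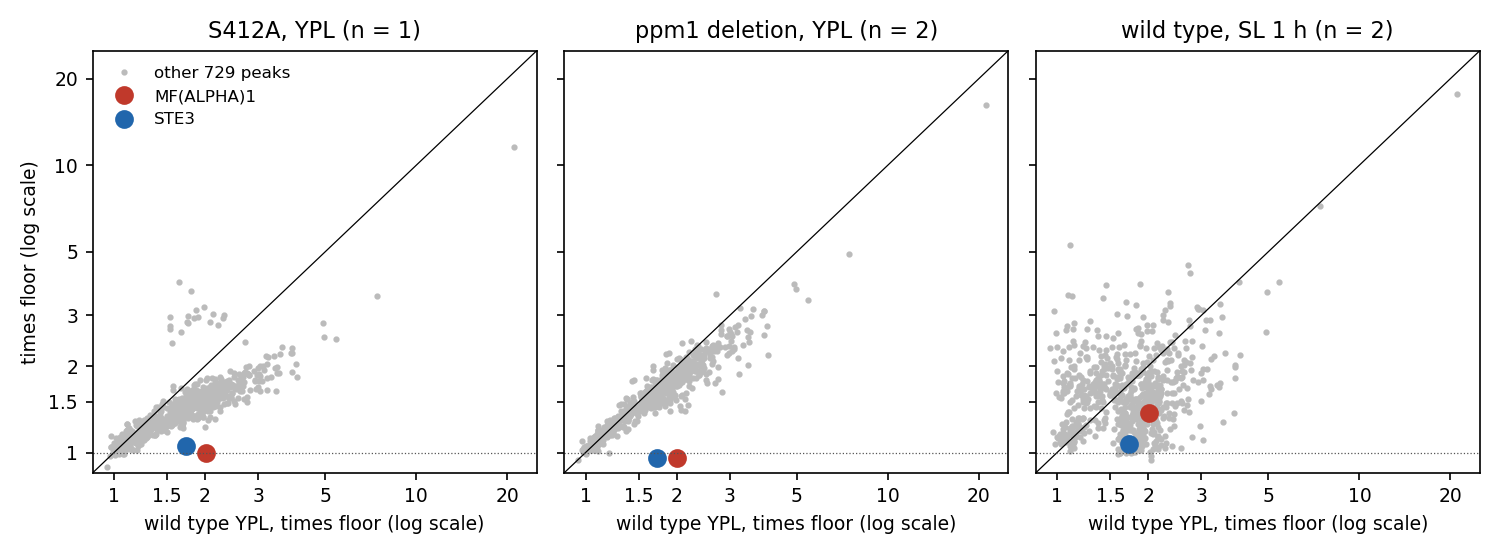
Signal per kb as multiples of the floor (the 1st percentile over peaks of each library, averaged over a group's libraries), with S412A, the ppm1 deletion and SL on the vertical axes and wild type in YPL on the horizontal axes, on log scales, where the diagonal marks equal values and the dotted line the floor. The MF(ALPHA)1 peak (0.999 and 0.958 against 2.01) and the STE3 peak (1.05 and 0.960 against 1.73) lie below the other peaks of similar wild-type level in S412A and the ppm1 deletion, whereas in SL, at 1.38 and 1.07, both lie within the spread of the other peaks.

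As log2 differences from wild type in YPL, the MF(ALPHA)1 peak was at -1.0 in S412A (SE 0.20) and -1.01 in the ppm1 deletion (SE 0.16), and the STE3 peak at -0.71 (SE 0.15) and -0.80 (SE 0.12). Both comparisons use the same wild-type YPL libraries, so the 2 values of a peak are not independent. Over all peaks the median was -0.25 in S412A and -0.01 in the ppm1 deletion. By limma with Benjamini-Hochberg adjustment 17.5% of peaks were lower in S412A (1.92% higher), and in the ppm1 deletion the lower ones came to 1.23% (0% higher, with 4 higher at an unadjusted p under 0.05). The 2 peaks are counted in both, but nothing is read from that, as these differences chose them. In the ppm1 deletion the MF(ALPHA)1 difference was the most negative of all 731 and the STE3 difference ranked 3, and in S412A they ranked 6 and 35. Both peaks stood near the floor in these libraries, and without a measured background it is not known how much lower they could go.

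S412A and the ppm1 deletion stood level at these peaks. The log2 difference of S412A minus the ppm1 deletion was 0.01 at MF(ALPHA)1, where the libraries overlapped, and 0.08 at STE3, where the S412A value was 2868 and the higher ppm1 value 2810. The median over all peaks was -0.24, so most peaks were lower in S412A and these 2 were not. The pair was chosen for standing near the floor in both groups, so nothing is read from that contrast. Both groups stood near the floor, which is a percentile over peaks and not a measured background. The near equality therefore does not show that the substitution and the deletion act alike.

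The switch to SL was not part of the rule that chose the peaks, but it uses the same wild-type YPL libraries, which are high at both. Peaks chosen as low against those libraries are prone to show a fall from them. The STE3 peak was within 1.1 times the floor in every library outside wild type in YPL. The p-values below are therefore not independent of the choice. After 1 h in SL both peaks fell. The STE3 peak averaged 3005 ± 122 in SL and 4703 ± 15.2 in YPL (SD, n = 2 each). Its log2 change was -0.65 with an SE of 0.12 (limma, Benjamini-Hochberg adjusted p = 1.21e-06). Signal at MF(ALPHA)1 averaged 6604 ± 503 in SL and 9350 ± 672 in YPL (n = 2 each), and changed by -0.50 on the log2 scale with an SE of 0.16 (limma, adjusted p = 0.00503). At each peak both SL libraries were below both YPL libraries. The same test called 36.7% of all peaks lower and 23.3% higher, so a fall in SL was common in the table and 2 falls of 2 say little about the pair. By size the falls ranked 103 (STE3) and 165 (MF(ALPHA)1) among the 731 changes.

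In SL the MF(ALPHA)1 call rested on both wild-type YPL libraries, with limma adjusted p = 0.0552 without the first and 0.171 without the second, and 0.000248 to 0.171 over all alternatives. The STE3 call held in each of the alternatives run, with adjusted p from 1.85e-07 to 0.00465. For a single peak, an exact two-sided permutation test of 2 libraries against 2 cannot give a p below 0.333.

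Counting only signal per kb above the floor, group means in SL were lower than in YPL by 61.5% at the MF(ALPHA)1 peak and by 89.7% at the STE3 peak. Whether this difference between the pheromone and the receptor peak exceeds the spread was not tested. The ratio of the MF(ALPHA)1 to the STE3 peak per kb was 1.39 and 1.18 in SL and 1.104 and 1.217 in wild type in YPL, with overlap between the groups. In S412A it was 0.949 and in the ppm1 libraries 1.02 and 0.976, where both peaks are at the floor.

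Set against SL, the MF(ALPHA)1 peak was lower by a log2 difference of -0.51 in the ppm1 deletion and -0.50 in S412A, with no overlap of libraries (medians over all peaks 0.03 and -0.14). At STE3 these differences were -0.15 and -0.07. The groups did not overlap there either, but the gaps between the nearest libraries were small, 2810 in the ppm1 deletion and 2868 in S412A against 2919 in SL.

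In wild type in YPL the pair was of ordinary height. From the top in signal per kb, MF(ALPHA)1 ranked 219 and STE3 ranked 382 of 731. The table was divided into 4 classes of wild-type YPL signal per kb. In the class of MF(ALPHA)1 (182 peaks, 2158 to 2555 per kb), its difference was the most negative of all in both S412A and the ppm1 deletion, and its rank was 55 in SL. In the class of STE3 (183 peaks, 1683 to 2158 per kb), its difference came first in both genotypes as well, and its rank was 10 in SL. In SL limma called 95 peaks lower in the first class and 52 in the second. The ranks in S412A and the ppm1 deletion use the values that chose the pair and are a description.

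The nearest peak on either side was also described. These are separate peaks, at 1953 to 2814 per kb in wild type in YPL, and no values between peaks were available. They therefore do not give the local background around the pair. Around MF(ALPHA)1 there are neighbours 16.8 kb to the left (from 172658 to 175061) and 18.5 kb to the right (from 214186 to 216269), with log2 differences of -0.11 and -0.04 in the ppm1 deletion. Around STE3 there are neighbours 18.5 kb to the left (from 88978 to 94135) and 25.7 kb to the right (from 140502 to 144824), with -0.33 and -0.03. In that genotype limma called 0 of the 4, and 0 of the 4 had an unadjusted p under 0.05. With 1.23% of all peaks lower there, 0 of 4 is near the share over the table. In S412A 1 of the 4 fell, the left neighbour of the MF(ALPHA)1 peak (log2 -0.50, limma adjusted p = 0.0288), beside 17.5% of all peaks. In SL 3 of the 4 fell, beside 36.7% of all peaks, led by the same left neighbour (log2 -1.04, limma adjusted p = 1.18e-11), and the right neighbour of STE3 did not pass (-0.05, adjusted p = 0.83).

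**Figure D3:**
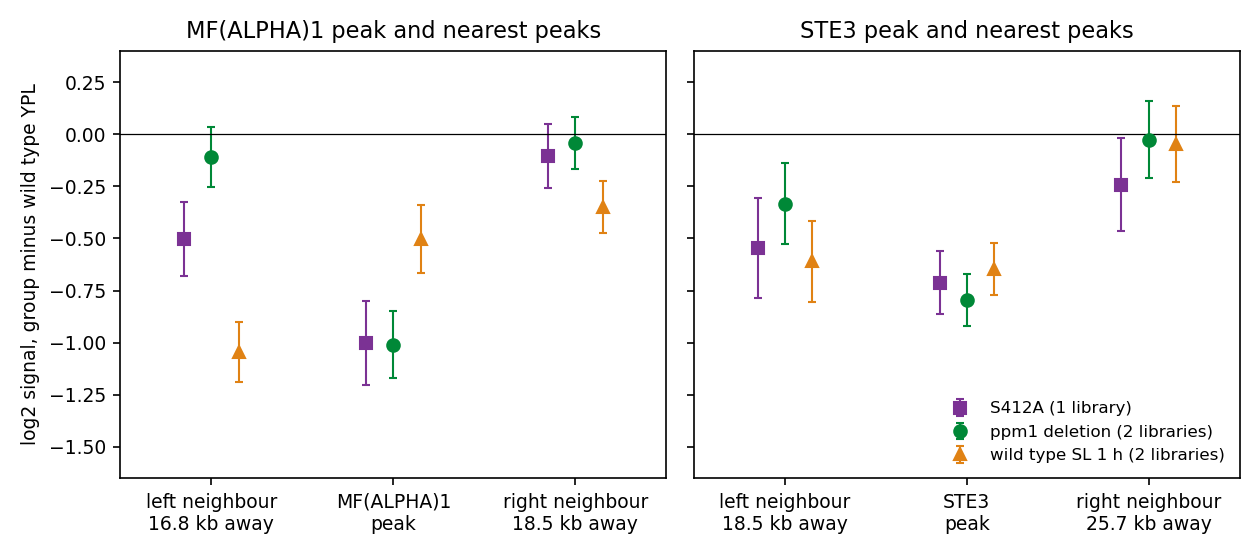
Log2 signal of S412A, the ppm1 deletion and SL minus wild type in YPL, at the MF(ALPHA)1 peak (left) and the STE3 peak (right) and at the nearest peak on each side, with the gap in kb and bars for the SE from limma. The ppm1 deletion is at -1.01 and -0.80 at the 2 peaks and between -0.33 and -0.03 at the 4 neighbours, while in SL the left neighbour of MF(ALPHA)1 fell further (-1.04) than the peak itself (-0.50).

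The peaks most like each of the pair were found by the root mean square difference, over the 7 libraries, of log2 signal relative to wild type in YPL. For MF(ALPHA)1 the nearest was the STE3 peak (0.192, against a median of 0.66 over all peaks), followed by the peaks starting on XIII at 539853 (ending at 541349, 0.193), on XVI at 678348 (680319, 0.194), on VII at 621688 (626965, 0.217) and on XIV at 557240 (561414, 0.231). For STE3 the nearest was the same XIII peak (0.133, against a median of 0.543), then IX at 426875 (ending at 428184, 0.149), the XVI peak at 678348 (0.174), XVI at 296420 (300843, 0.181) and IV at 975812 (977992, 0.188). MF(ALPHA)1 came at place 6 (0.192). All share the wild-type YPL libraries, and the peaks nearest to one that is low in both genotypes are low there by construction.

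These like-shaped peaks differ from the pair in height. The XIII peak held 2033 per kb in S412A, 2076 in the ppm1 deletion, 2252 in SL and 3457 in wild type in YPL, and the XIV peak held 2255, 2786, 2758 and 4936 in those groups. The lowest of them in the ppm1 deletion, on IX, held 1775 per kb there, against 1224 and 1225 at the MF(ALPHA)1 and STE3 peaks. Signal at the like-shaped peaks was thus still above the floor in the ppm1 deletion.

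Mating type was not measured in these files, and genes specific to a cells were not placed on peaks, because the only gene table used here belongs to build R64. Chromosome III carries the mating-type locus and its silent copies, and 18 peaks of the table lie on it. In S412A 2 of the 18 were lower (11.1%, against 17.5% of all peaks) and 0 higher (1.92%). In the ppm1 deletion 0 of 18 passed in limma in either direction (1.23% of all peaks were lower and 0% higher), and 1 had an unadjusted p under 0.05. In SL 6 were lower (33.3%, against 36.7% of all peaks) and 5 higher (27.8%, against 23.3%). These counts are near the shares over all peaks and say nothing particular of chromosome III. The mating-type locus and its silent copies were not placed on these peaks, so the counts cannot show whether strains differ in mating type. Each of the 3 genotypes is a strain of its own. The effect of the ppm1 deletion or of S412A at these peaks therefore cannot be told apart from any other difference between the strains. The labels give MATa for all of them, so a difference in mating type would go against the labels. Under that label, wild type in YPL still stood at 1.67 to 2.17 times the floor at these peaks named for alpha-specific genes. Wild type in SL, with the same label, stood at 1.48 and 1.28 times at MF(ALPHA)1 and at 1.06 and 1.09 times at STE3. Whether the strains differ in mating type was not tested.

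In the R64 gene table the gene next to MF(ALPHA)1 is POS5 on one side and UIP4 on the other, and STE3 lies between COY1 and LST4. A peak of 3792 or 2213 bp can hold more than 1 gene, and the table gives 1 value for its whole width. The signal can therefore not be assigned to a promoter or a coding region here.

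The libraries held between 13808893 and 34820208 reads as implied by the values. At the 2 peaks these totals give 1832 to 8601 reads per library, a counting error of 1.08% to 2.34%, which covers the counting of reads only. Between replicates, log2 signal at the MF(ALPHA)1 peak differed by 0.04 in the ppm1 deletion, 0.16 in SL and 0.15 in wild type in YPL, and at the STE3 peak by 0.10, 0.08 and 0.01. The share of reads in all peaks was 18.6% in S412A, 22.6% and 20.0% in the ppm1 deletion, 24.1% and 19.7% in SL and 21.7% and 22.9% in wild type in YPL. It was lowest in S412A, and the part of that lower share in the S412A values was not tested. As a share of the signal in all peaks, which removes it, the MF(ALPHA)1 peak held 11.4 per 10000 in S412A, 9.21 and 10.7 in the ppm1 libraries, 13.1 and 14.4 in SL and 18.6 and 19.5 in wild type in YPL. The STE3 peak held 7.02 per 10000 in S412A, 5.25 and 6.40 in the ppm1 libraries, 5.51 and 7.15 in SL and 9.84 and 9.35 in wild type in YPL. On this scale too, both wild-type YPL libraries were above all others at both peaks.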

How the data were processed

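The authors deposited a table with 1 signal value for each of 731 peaks in each of 7 libraries. Reads were aligned with Bowtie2 to sacCer2, per the submitters' processing notes. Not given in the sources used here are the peak calling, its filters, the merging of peaks and any use of input. Every deposited signal value was a whole multiple (100% within 0.001) of 22000000 divided by a whole number, so the deposited signal was taken as read numbers brought to a common library total of 22000000. These reads were used only for counting errors. The planned count test was not run, since no recovered read number was low enough for the check of their unit.

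Log2 signal (pseudocount 0) was fitted with limma 3.58.1 in R 4.3.3, with group as the only term and eBayes with trend. There were 3 residual degrees of freedom and an infinite prior, so each peak's spread is the trend over peaks (median SD 0.14). S412A has 1 library, with its spread borrowed from the other groups. Adjustment of p-values (Benjamini-Hochberg) was over 731 peaks with a threshold of 0.05. The script was tested on simulated data. Means ± SD use unlogged signal.

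The 2 peaks, the chromosome and floor comparisons and the alternatives were chosen with earlier results of these data known. Named are both peaks, the nearest peak on each side, the 5 peaks most like each, and peaks that cross between the floor and 1.5 times it, with the peak next nearest to the floor added after its values were seen. Planned promoter motifs were not run, as no sequences were at hand.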

Additional observations from a re-analysis of the deposited data

How the results depend on the processing

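The 2 log2 changes in SL kept their direction under every alternative run: -0.58 to -0.42 at the MF(ALPHA)1 peak and -0.69 to -0.50 at STE3. Leaving out 1 library gave -0.58 to -0.42 and -0.69 to -0.61, with the MF(ALPHA)1 call lost without either wild-type YPL library. The descriptive differences in the ppm1 deletion ranged from -1.08 to -0.94 and from -0.85 to -0.70, and those in S412A from -1.07 to -0.75 and from -0.72 to -0.48. With median-centred libraries, which remove the shift of -0.25 in S412A, the S412A differences were -0.76 at MF(ALPHA)1 and -0.48 at STE3, and with quantile normalization -0.75 and -0.53.

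Counts over all peaks moved more. With median-centred libraries S412A had 41 higher and 83 lower (14 and 128 as deposited) and the ppm1 deletion 4 and 29 (0 and 9). With quantile normalization S412A had 68 higher, the ppm1 deletion 13 higher and 33 lower, and SL 260 higher (170 as deposited). Leaving out 1 library gave 86 to 219 higher and 133 to 339 lower in SL, 0 to 1 higher and 0 to 23 lower in the ppm1 deletion, and 0 to 15 higher and 0 to 268 lower in S412A. The cause was not tested. The count of 2 peaks at the floor in S412A and the ppm1 deletion was 2 under each of its alternatives, chosen after seeing the data, and also with limits of 1.2 and 1.3 times the floor. Leaving out a library or raising the limit can only add peaks, so the pair itself could not drop out there. Over a floor at the 5th percentile, both peaks stood at 0.944 and 0.995 times in S412A, 0.848 to 0.928 times in the ppm1 libraries and 1.59 to 2.02 times in wild type in YPL. Relative to the median peak they stood at 0.686 and 0.723 times in S412A, 0.528 to 0.638 times in the ppm1 libraries and 0.967 to 1.18 times in wild type in YPL.

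Same-numbered libraries did not deviate together (correlations of -0.331, -0.443 and 0.139 over peaks). With 2 libraries per group, whose deviations mirror each other, this check cannot exclude that the numbers pair them. With the replicate block SL gave -0.50 (adjusted p = 0.0086) and -0.65 (adjusted p = 1.6e-06) in limma, the ppm1 deletion -1.01 and -0.80, with 162 higher and 257 lower in SL and 0 and 8 in the ppm1 deletion. S412A has no number and was not in that fit. The edgeR test was not run.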
